A study of Homo sapiens with 6 samples.

Results

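The genes described here are 32 genes of the endoplasmic reticulum (ER) quality control system: stress sensors, ER chaperones, disulfide isomerases and factors of ER-associated degradation (ERAD). They were taken from the authors' table by gene symbol, and all 32 were found among its 17911 genes. RNA was sequenced from LX-2, an established line of human hepatic stellate cells, the matrix-producing cells of the liver. One group of cells carried a mutation in exon 3 of MPI (labelled MPI MT, 3 libraries) and the other was wild type (WT, 3 libraries). Both were described as grown in the same medium with serum, and no treatment is named. How the mutation was made, and whether the mutant cells are 1 clone, is not stated in the labels. The labels do not say whether the 3 libraries per genotype are separate cultures, and the spread that the p-values rest on may therefore be technical. In bulk libraries a changed share of cells and a changed level per cell cannot be told apart.

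Secreted and membrane proteins fold in the ER, where the Hsp70 chaperone BiP (gene HSPA5) and its cofactors hold unfolded chains and disulfide isomerases join their cysteines. When unfolded proteins accumulate, the membrane sensors IRE1, PERK and ATF6 start the unfolded protein response, which raises transcription of chaperone and ERAD genes. ERAD moves misfolded proteins out of the ER into the cytosol for destruction by the proteasome. MPI encodes mannose phosphate isomerase, which supplies mannose 6-phosphate for N-glycans, the sugar chains that many proteins need to fold in the ER. Stellate cells secrete large amounts of collagen and other matrix proteins through this system.

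Values are normalised read counts: the deposited values equal the reads of each library divided by 1 size factor. Recovered reads per library ran from 27037905 to 34970840. Log2 fold changes with their SE compare MPI MT with WT after adding a pseudocount of 1, by limma-trend fitted to 17893 genes whose mean was 10 or more, and adjusted p is Benjamini-Hochberg over all of these. MPI itself measured 1051, 978 and 1035 in MPI MT libraries, against 1292, 1283 and 1256 in WT libraries (log2 fold change -0.32 ± 0.07, limma adjusted p = 0.00648). Gene counts do not show which sequence its exon carried. Of 10 stellate or fibroblast markers 8 were listed, with a summed level of 181989 to 211546 in MPI MT and 159764 to 167651 in WT, and DES and LRAT were not listed. VIM was the largest part of that sum, and the markers went both ways: VIM and TIMP1 were higher in MPI MT (log2 fold change 0.27 and 0.94), ACTA2, COL1A2 and PDGFRB were lower (-0.97, -1.37 and -0.47), and COL1A1, COL3A1 and SPARC did not pass. Of these calls, those of TIMP1 and ACTA2 held under all 17 alternatives, while those of VIM, COL1A2 and PDGFRB were lost in 4 to 5 of the 6 fits that left out 1 library (adjusted p over the alternatives up to 0.134, 0.0818 and 0.134). Of 5 hepatocyte markers SERPINA1 was listed and ALB, APOA1, TTR and CYP3A4 were not, with SERPINA1 at 62.4 to 105 in MPI MT and 155 to 173 in WT. The summed levels of listed endothelial markers (3 of 4) were 141 to 166 in MPI MT and 55.9 to 67.2 in WT, of leukocyte markers (3 of 5) 161 to 200 in MPI MT and 117 to 124 in WT, and of cholangiocyte markers (3 of 4, mostly SOX9) 2710.4 to 3257 in MPI MT and 1921 to 2155 in WT. Of these lists CDH5, CD163, MARCO and EPCAM were not listed. In mean level PECAM1 was 123 in MPI MT and 29.3 in WT, VWF 18.2 and 22.8, and STAB2 10.8 and 10.5. CD68 was 106 in MPI MT and 61.0 in WT, LYZ 20.0 and 2.00, and PTPRC 56.6 in both. KRT7 was 205 in MPI MT and 229 in WT, KRT19 6.96 and 13.4, and SOX9 2845 and 1777. The part of these markers in the results was not tested. The library numbered 1 stood apart from the other two of its genotype: the chi-square per gene was 33.3 and 35.1 for MPI MT replicate 1 against the others and 2.72 between those others. For WT replicate 1 it was 14.0 and 16.8 against the others, and 3.5 between them.

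None of the 9 chaperone and cochaperone genes among the 32, HSPA5 (BiP) included, passed the test as higher in the mutant cells. Over all tested genes 16% did, a share at which few of 9 genes would be called. Of 18 further BiP cofactors and folding factors 2 rose (DNAJC1 and SEC63) and 1 fell. Of the 32 genes, 3 rose (ERN1, XBP1 and EDEM3) and 5 fell (HYOU1, DNAJB11, PDIA3, PDIA6 and ERO1B) past an adjusted p of 0.05 with limma. That is 25% of the 32, against 32.6% of all tested genes (16% higher and 16.6% lower). The changes were small: 30 of 32 had an absolute log2 fold change under 0.5, against 74.3% of all tested genes. The median log2 fold change was -0.06 over the 32 genes and -0.0031 over all tested genes. The libraries of the genotypes did not overlap for 16 of the 32 genes, against 46.7% of tested genes.

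The counts of calls depended on how the libraries numbered 1 were handled. With the replicate number as a block, 4 of the 32 rose and 10 fell, while 25.1% of all tested genes rose and 24.6% fell (49.8% called). The genes added were UFD1 among the rises, and EIF2AK3, HSP90B1, OS9, SYVN1 and DERL3 among the falls. With both libraries numbered 1 left out, 6 rose and 14 fell, while 28.3% of all tested genes rose and 27.1% fell (55.4% called). edgeR and DESeq2 on recovered reads each called the same numbers as limma, 3 higher and 5 lower, with 32.9% of all tested genes called by either tool. Without MPI MT replicate 1 alone, 5 rose and 8 fell, with 48.9% of all tested genes called. The number that fell was 3 without MPI MT replicate 2 (21.6% of all tested genes called), without MPI MT replicate 3 (22.4%) and without WT replicate 2 (21.8%).

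**Figure D1:**
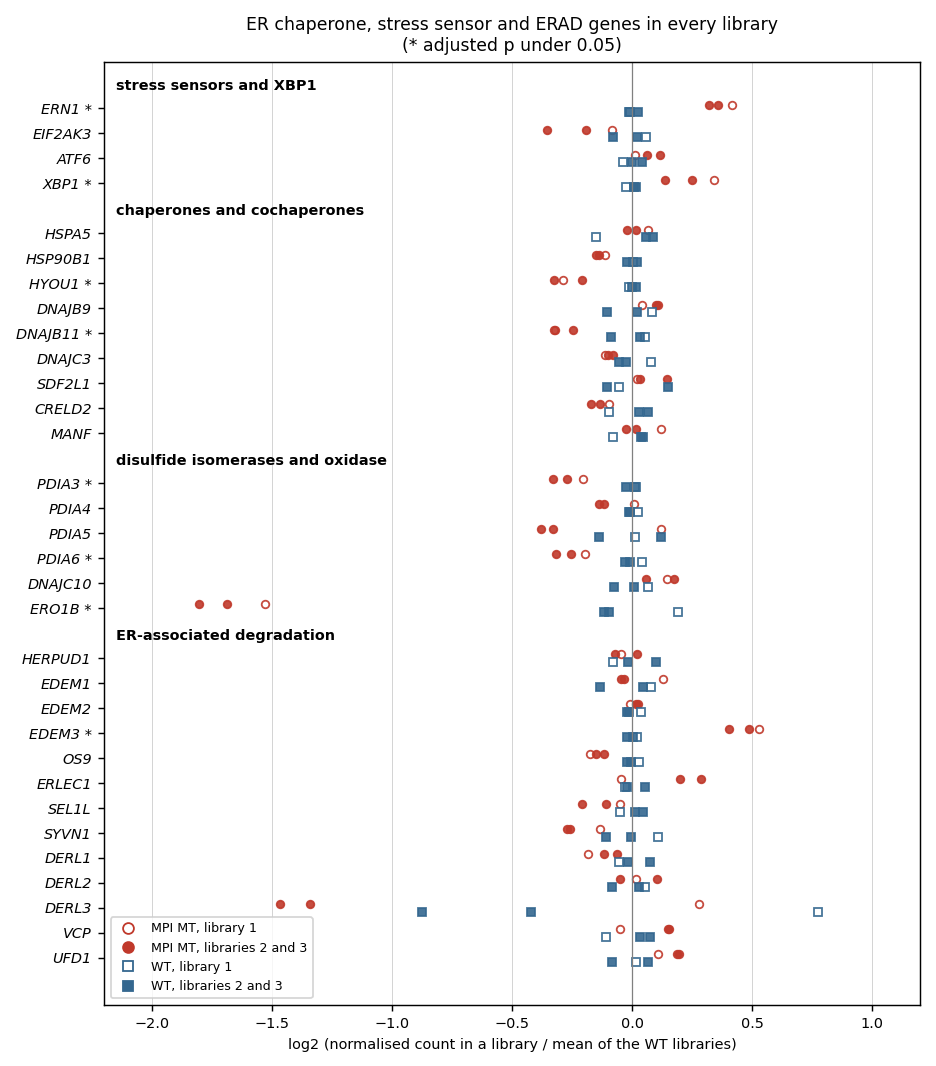
Each of the 32 genes in each library, as log2 of the normalised count over the mean of the WT libraries, with MPI MT as red circles and WT as blue squares, and the library numbered 1 of each genotype open. All genes but ERO1B, DERL3 and EDEM3 lie within 0.5 of 0 in all libraries, ERO1B stands apart in all 3 MPI MT libraries, and for DERL3 the open symbols of both genotypes lie to the right of the others.

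The sensor class was led by ERN1, which encodes IRE1, the kinase and endoribonuclease of the ER membrane (ENSG00000178607, GRCh38 chromosome 17, 64039142 to 64130819, minus strand). ERN1 measured 794, 744 and 763 in MPI MT libraries, against 592, 605 and 589 in WT libraries. All MPI MT libraries lay above all WT libraries, and the log2 fold change was 0.36 ± 0.07 (limma adjusted p = 0.00575). The call held under all 17 alternatives, which gave log2 fold changes from 0.33 to 0.39.

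XBP1 encodes the transcription factor that becomes active when IRE1 cuts its mRNA. XBP1 (chromosome 22, 28794555 to 28800597, minus strand) measured 1857, 1614 and 1745 in MPI MT libraries, against 1444, 1486 and 1477 in WT libraries. The groups did not overlap, and the log2 fold change was 0.24 ± 0.07 (limma adjusted p = 0.0323). This call was lost in 4 of the 6 fits that left out 1 library, with adjusted p of 0.0965 without MPI MT replicate 3, 0.0884 without WT replicate 1, 0.0916 without WT replicate 2 and 0.0894 without WT replicate 3. The log2 fold change in those fits was 0.23 to 0.25.

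IRE1 removes 26 bases from the XBP1 mRNA, and the remaining ends are joined so that the reading frame shifts. The segment is shown because reads of both forms are counted in the same gene, so the rise in XBP1 counts does not show which form was present. GENCODE 29 keeps it in transcript XBP1-201 and annotates a 26-base intron at chr22:28796124-28796149 (GRCh38, minus strand) in XBP1-207. In XBP1-202 the intron is placed at chr22:28796122-28796147. The annotation thus does not fix the exact bases that IRE1 cuts out. Capitals mark the 26 bases as placed in XBP1-207 and lower case the 10 bases on either side.
XBP1: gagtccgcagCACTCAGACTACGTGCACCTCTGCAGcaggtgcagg

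EIF2AK3 encodes PERK, the sensor kinase that phosphorylates the translation factor eIF2 alpha. It measured 804, 745 and 666 in MPI MT libraries, against 887, 806 and 864 in WT libraries. The groups did not overlap, by a narrow gap, and the difference did not pass the test (log2 fold change -0.21 ± 0.09, limma adjusted p = 0.112). It passed with the replicate block (adjusted p = 0.0260) and without MPI MT replicate 1 (log2 fold change -0.27, adjusted p = 0.0167). ATF6, which encodes the sensor that is cut in the Golgi to release a transcription factor, measured 2135, 2297 and 2213 in MPI MT libraries, against 2062, 2119 and 2175 in WT libraries. The groups overlapped, and the difference was 0.06 ± 0.06 on the log2 scale with a 95% interval from -0.08 to 0.21 (limma adjusted p = 0.470).

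Among the 9 chaperones and cochaperones none rose, HYOU1 and DNAJB11 fell, and the other 7 did not pass the test (3 of 9 fell with the replicate block). The shares of all tested genes were 16% higher and 16.6% lower, and 25.1% and 24.6% with the block. The median log2 fold change of the class was -0.10. HSPA5, which encodes BiP, is the target gene most often read as a sign of ER stress (ENSG00000044574, chromosome 9, 125234853 to 125241330, minus strand). It measured 15605, 14704 and 15092 in MPI MT libraries, against 13413, 15491 and 15842 in WT libraries. The groups overlapped, and the lowest value of all belonged to WT replicate 1. The log2 fold change was 0.02 ± 0.08 with a 95% interval from -0.16 to 0.21 (limma adjusted p = 0.846), and no alternative called it.

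HSP90B1, which encodes the ER Hsp90 protein GRP94, measured 21230.1, 20676 and 20895 in MPI MT libraries, against 23043, 23301 and 22651 in WT libraries. The groups did not overlap, but the difference did not pass the test (log2 fold change -0.14 ± 0.06, limma adjusted p = 0.137, and 0.0438 with the replicate block). Per kb of exon it was the most abundant of the 32 genes in both genotypes, at 4459 ± 59.4 in MPI MT and 4898 ± 69.8 in WT (SD, n = 3 each), followed by HSPA5 at 3872 ± 116 in MPI MT and 3817 ± 336 in WT.

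HYOU1, which encodes a large ER chaperone that also exchanges nucleotide on BiP, measured 3368, 3562 and 3284 in MPI MT libraries, against 4076, 4118 and 4164 in WT libraries. All MPI MT libraries lay below all WT libraries (log2 fold change -0.28 ± 0.06, limma adjusted p = 0.00935), and the call held under all 17 alternatives. DNAJB11, which encodes the BiP cochaperone ERdj3, measured 1402, 1481 and 1409 in MPI MT libraries, against 1823, 1657 and 1800.3 in WT libraries. It fell by 0.30 on the log2 scale (SE 0.07, limma adjusted p = 0.0108), and the adjusted p was 0.0501 without WT replicate 3. Exons of other genes share 23.2% of the exon bases of DNAJB11 and 8.66% of those of HYOU1, in whole or in part on the opposite strand, and no source used here gives the strand setting of the counting.

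The remaining chaperone genes lay between log2 fold changes of -0.13 and 0.08. DNAJB9 and DNAJC3, which encode the BiP cochaperones ERdj4 and p58IPK, had log2 fold changes of 0.08 ± 0.09 and -0.10 ± 0.06. SDF2L1, an ER protein that works with ERdj3, had 0.07 ± 0.09, and MANF, a secreted stress protein that binds BiP, had 0.04 ± 0.07. CRELD2, an ER protein induced by stress, measured 1237, 1207 and 1175 in MPI MT libraries, against 1239.6, 1387 and 1351 in WT libraries. Its groups did not overlap, but the values of MPI MT replicate 1 and WT replicate 1 nearly met (log2 fold change -0.13 ± 0.07, limma adjusted p = 0.181). It passed with both libraries numbered 1 left out (log2 fold change -0.20, adjusted p = 0.00433).

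Of the 6 genes of disulfide formation, 3 fell and none rose, both without and with the replicate block. Over all tested genes 16.6% fell without the block and 24.6% with it. The largest change among the 32 genes was that of ERO1B, an oxidase that passes electrons from disulfide isomerases to oxygen (ENSG00000086619, chromosome 1, 236215555 to 236281985, minus strand). ERO1B measured 74.3, 66.6 and 61.4 in MPI MT libraries, against 245, 198 and 201 in WT libraries. The groups were far apart (log2 fold change -1.65 ± 0.15, limma adjusted p = 1.07e-04), and the alternatives gave -1.72 to -1.55 with every call kept. It stood low on the scale of the 32 genes, at 12.6 ± 1.21 per kb of exon in MPI MT and 40.0 ± 4.93 in WT (SD, n = 3 each).

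PDIA3, also named ERp57, joins disulfides in glycoproteins that calnexin and calreticulin hold. It measured 13454, 12341 and 12834 in MPI MT libraries, against 15664, 15644 and 15226 in WT libraries, with no overlap (log2 fold change -0.27 ± 0.07, limma adjusted p = 0.0144). It was the most abundant of its class per kb of exon, at 3037 ± 131 in MPI MT and 3658 ± 58.3 in WT (SD, n = 3 each). PDIA6, an isomerase that binds BiP, measured 5152, 4950.1 and 4737 in MPI MT libraries, against 6066, 5869 and 5784 in WT libraries (log2 fold change -0.26 ± 0.06, limma adjusted p = 0.0145). Its groups did not overlap either. Both calls were lost in the same 3 of the 6 fits that left out 1 library. Without MPI MT replicate 2 the adjusted p was 0.0783 for PDIA3 and 0.0591 for PDIA6, without MPI MT replicate 3 it was 0.0554 and 0.0668, and without WT replicate 2 it was 0.0657 and 0.0576, in that gene order. Exons of other genes share 18.9% of the exon bases of PDIA3 and 25.2% of those of PDIA6. PDIA3 has the processed copy PDIA3P1, counted at a mean of 62.9 in MPI MT and 74.2 in WT, and the unprocessed copy PDIA3P2, at 9.63 in MPI MT and 12.0 in WT. Copies of HSP90B1 (HSP90B2P, 14.5 in MPI MT and 11.6 in WT) and XBP1 (XBP1P1, 9.69 in MPI MT and 13.1 in WT) were also counted, and reads that fit a copy as well as its parent gene may be split between them.

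PDIA4 and DNAJC10, an isomerase and a reductase of the ER, had log2 fold changes of -0.08 ± 0.07 and 0.13 ± 0.07 and did not pass (limma adjusted p = 0.363 and 0.186). PDIA5, a further isomerase, measured 389, 275 and 285 in MPI MT libraries, against 360.3, 389 and 325 in WT libraries. MPI MT replicate 1 lay at the level of the highest WT library and the other two below all of them (log2 fold change -0.19 ± 0.15, limma adjusted p = 0.351). Without MPI MT replicate 1 the log2 fold change was -0.35 (adjusted p = 0.0189).

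Among the 13 ERAD genes 1 rose, none fell and 12 did not pass (2 rose and 3 fell with the replicate block). Over all tested genes 16% rose and 16.6% fell, and with the block 25.1% rose and 24.6% fell. EDEM3, which belongs to the mannosidase-related EDEM proteins that trim N-glycans to mark misfolded glycoproteins, was the gene that rose (ENSG00000116406, chromosome 1, 184690231 to 184754913, minus strand). It measured 1688, 1640.0 and 1549 in MPI MT libraries, against 1185, 1172 and 1152 in WT libraries. The groups did not overlap (log2 fold change 0.47 ± 0.07, limma adjusted p = 9.43e-04), and the call held under all 17 alternatives. Its relatives EDEM1 and EDEM2 had log2 fold changes of 0.02 ± 0.08 and 0.01 ± 0.07, with 95% intervals from -0.17 to 0.21 and from -0.15 to 0.17 (limma adjusted p = 0.890 and 0.927). The difference between EDEM3 and its relatives was not tested.

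The lectins OS9 and ERLEC1 read the trimmed glycans and hand proteins to the SEL1L and SYVN1 (HRD1) ubiquitin ligase. OS9 measured 5924, 6176 and 6034 in MPI MT libraries, against 6837, 6675 and 6587 in WT libraries, with no overlap (log2 fold change -0.15 ± 0.06, limma adjusted p = 0.0879, and 0.0270 with the replicate block). SYVN1 measured 1748, 1602 and 1588 in MPI MT libraries, against 2065, 1779 and 1909 in WT libraries, with no overlap (log2 fold change -0.22 ± 0.08, limma adjusted p = 0.0623). SYVN1 passed with the replicate block (adjusted p = 0.00437) and without MPI MT replicate 1 (adjusted p = 0.0104). SEL1L overlapped between the genotypes, with a log2 fold change of -0.12 ± 0.07. ERLEC1 measured 1779, 2111 and 2238 in MPI MT libraries, against 1797, 1812 and 1905 in WT libraries. MPI MT replicate 1 lay below all WT libraries and the other two above them (log2 fold change 0.15 ± 0.09, limma adjusted p = 0.255), and without MPI MT replicate 1 the log2 fold change was 0.24 (adjusted p = 0.00763).

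HERPUD1, an ER membrane protein that organises the ligase and is induced by ER stress, had a log2 fold change of -0.03 ± 0.08 and a 95% interval from -0.21 to 0.14 (limma adjusted p = 0.779). The derlins form part of the channel through which proteins leave the ER, and DERL1 and DERL2 had log2 fold changes of -0.12 ± 0.07 and 0.02 ± 0.07. DERL3 measured 113, 33.8 and 36.8 in MPI MT libraries, against 159.7, 69.9 and 51.0 in WT libraries. The library numbered 1 was the highest of its genotype in both, and the groups overlapped (log2 fold change -0.66 ± 0.53, limma adjusted p = 0.375, and 0.00669 with the replicate block). Without MPI MT replicate 1 the log2 fold change was -1.21, without WT replicate 1 it was -0.19, and without both it was -0.74. SMARCB1 on the opposite strand and DERL3 share 77.0% of the exon bases of DERL3, so the DERL3 count is uncertain while the strand setting is unknown.

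VCP, the cytosolic ATPase that pulls proteins out of the membrane, measured 10547, 12137 and 12112 in MPI MT libraries, against 10111, 11158 and 11511 in WT libraries, with overlap between the groups (log2 fold change 0.09 ± 0.08, limma adjusted p = 0.476). It was the most abundant ERAD gene per kb of exon, at 2133 ± 167 in MPI MT and 2009 ± 134 in WT (SD, n = 3 each). Its cofactor UFD1 measured 2813, 2993 and 2972 in MPI MT libraries, against 2639.8, 2469 and 2738 in WT libraries. The groups did not overlap, and the difference did not pass (log2 fold change 0.16 ± 0.07, limma adjusted p = 0.0951) except with the replicate block (0.0255), without MPI MT replicate 1 (0.0266) and with both libraries numbered 1 left out (0.00313).

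**Figure D2:**
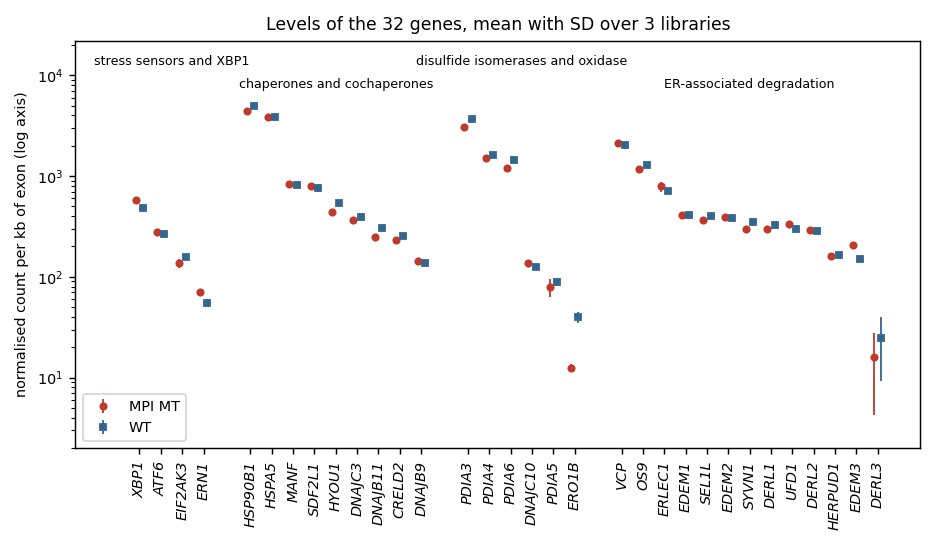
Normalised count per kb of exon (log axis) of the 32 genes, ordered within each class by the WT level, as mean with SD over 3 libraries per genotype, MPI MT in red and WT in blue. HSP90B1, HSPA5, PDIA3 and VCP stand highest in both genotypes, and the widest gap between the genotypes is at ERO1B, with 12.6 in MPI MT and 40.0 in WT.

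All 32 genes together gave 117894, 116335 and 116181 normalised counts in MPI MT libraries, against 121503, 123823 and 123703 in WT libraries. The sum was lower in every MPI MT library. The sensor class went the other way, with 5589.7, 5400.2 and 5387 in MPI MT, against 4984, 5016 and 5106 in WT, and its groups did not overlap. The chaperone class gave 48209.5, 46993 and 47063.5 in MPI MT, against 48946, 51371 and 51075 in WT, with all MPI MT libraries lower. For the disulfide class the sum was 27412, 25589 and 25562 in MPI MT, against 30575, 29946 and 29509.9 in WT, also without overlap. For the ERAD class the sum was 36683, 38353 and 38168 in MPI MT, against 36999, 37491 and 38012 in WT, and the groups overlapped. All these sums add counts not divided by exon length, so the genes with most reads weigh most. HSP90B1, which did not pass, averaged 20934 in MPI MT and 22998 in WT, and PDIA3 averaged 12876 and 15512. Of the 32 genes, 15 had a log2 fold change above 0, so the lower sum is not a fall across the list.

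ATF6 and XBP1 act through short promoter elements named ERSE (CCAAT, 9 bases of any kind, then CCACG) and ERSE-II (ATTGG, 1 base of any kind, then CCACG), and these were searched in RefSeq promoters, from 250 bases before to 50 after each start (GRCh38.p14). A match describes the letters and shows no binding. Both strands were searched, and 28 of the 32 genes had a promoter in the table. DERL1, DERL3, UFD1 and PDIA3, which fell, had none there and were not searched. An ERSE was found in 6 of them (21.4%), against 0.0916% of 27305 genes, and an ERSE-II in 3 (10.7%), against 0.0696%. The 32 genes were chosen as genes of this pathway, so a share above that of all genes follows in part from the choice. Of the 9 genes with either element, 1 rose (XBP1), 3 fell (ERO1B, HYOU1 and PDIA6) and 5 did not pass (HSPA5, HSP90B1, CRELD2, SDF2L1 and HERPUD1). Over all tested genes 16% rose and 16.6% fell, shares at which a few of 9 genes would be called either way. The calls of XBP1 and PDIA6 were lost in some fits that left out 1 library. The stretches that hold these elements are shown because carriers of the same element differed in direction. Matches are in capitals, with 10 or fewer bases on either side, in the direction of the gene. A match on the opposite strand reads CGTGG first.
XBP1, chr22:28800593-28800631, minus strand: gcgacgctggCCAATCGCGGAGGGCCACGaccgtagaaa
HSPA5, chr9:125241381-125241419, minus strand: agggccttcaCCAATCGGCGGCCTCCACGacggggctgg
HSP90B1, chr12:103930206-103930349, plus strand: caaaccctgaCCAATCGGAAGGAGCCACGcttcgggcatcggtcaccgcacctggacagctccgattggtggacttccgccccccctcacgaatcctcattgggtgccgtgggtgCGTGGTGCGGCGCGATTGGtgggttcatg
CRELD2, chr22:49918544-49918582, plus strand: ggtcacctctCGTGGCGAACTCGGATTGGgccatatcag
SDF2L1, chr22:21642104-21642134, plus strand: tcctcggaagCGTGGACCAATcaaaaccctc
HERPUD1, chr16:56931956-56932045, plus strand: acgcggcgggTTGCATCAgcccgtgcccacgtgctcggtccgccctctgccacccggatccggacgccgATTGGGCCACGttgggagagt
PDIA6, second start, chr2:10812843-10812881, minus strand: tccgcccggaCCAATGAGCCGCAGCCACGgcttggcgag
HYOU1, chr11:119057264-119057403, minus strand: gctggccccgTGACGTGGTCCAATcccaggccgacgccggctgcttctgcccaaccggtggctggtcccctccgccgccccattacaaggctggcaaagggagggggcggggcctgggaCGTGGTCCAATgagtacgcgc
ERO1B, chr1:236282173-236282208, minus strand: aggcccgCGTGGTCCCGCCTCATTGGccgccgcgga

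HSP90B1 held the ERSE on both strands and HYOU1 held the ERSE-II at 2 places. Genes that rose, fell and did not pass were all among the carriers, as they were among all tested genes. Whether carriers differed from other genes was not tested. HERPUD1 also held TTGCATCA, the core of the ATF4 element, which was the only match of it among the 28 genes (3.57%, against 1.08% of all genes). The core of the UPRE, the element read by XBP1 (TGACGTGG), was found in HYOU1, DNAJC10 and VCP (10.7%, against 0.927% of all genes). In HYOU1 it overlaps the first ERSE-II, so the capitals there run over both.

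**Figure D3:**
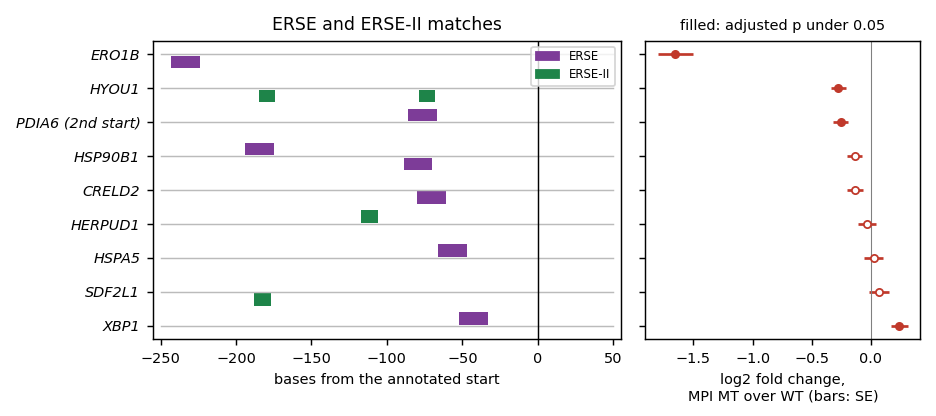
Left, position of each ERSE (purple) and ERSE-II (green) match relative to the annotated start, in bases, drawn above the line when on the strand of the gene and below it when on the opposite strand. Right, the log2 fold change of the same gene, MPI MT over WT, with SE bars, filled where adjusted p was under 0.05. Carriers run from ERO1B at -1.65 to XBP1 at 0.24, and HSPA5 lies at 0.02.

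Other genes of the pathway were followed in 9 lists with 143 genes, of which 140 were tested. The lists were chosen with earlier results of these data known, so a share above that of all genes may follow in part from the choice. Of these 41 rose and 18 fell (42.1% called, against 32.6% of all tested genes). With the replicate block 58 rose and 28 fell, with 49.8% of all tested genes called. Without MPI MT replicate 1, 62 rose, with 48.9% of all tested genes called. Without WT replicate 2, 26 rose and 11 fell, with 21.8% called. The median log2 fold change was 0.10, and that of the 32 genes above was -0.06. Beside the counts of each list below stand 16% of all tested genes higher and 16.6% lower. With the block those shares are 25.1% and 24.6%.

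In the PERK and ATF4 list 8 rose and 1 fell of 14 tested, both without and with the replicate block, with a median of 0.38. Without the block that is 64.3% called, against 32.6% of all tested genes, in a list chosen with earlier results of these data known. With it 49.8% of all tested genes were called. NUPR1, a stress-induced chromatin protein, averaged 339.7 ± 26 in MPI MT and 159 ± 27.7 in WT (log2 fold change 1.10 ± 0.15, limma adjusted p = 8.26e-04). CEBPB, a bZIP transcription factor, averaged 2911 ± 631 in MPI MT and 1493 ± 266 in WT (log2 fold change 0.95 ± 0.18, limma adjusted p = 0.00469). CHAC1, an ATF4 target that breaks down glutathione, averaged 319.9 ± 30.5 in MPI MT and 181 ± 13.4 in WT (log2 fold change 0.82 ± 0.12, limma adjusted p = 0.00116). These 3 calls held under all 17 alternatives. DDIT3, which encodes the stress factor CHOP, and ATF4 itself were added after their values were seen: DDIT3 averaged 558 ± 48.0 in MPI MT and 372 ± 14.8 in WT (limma adjusted p = 0.00222), and ATF4 averaged 7255 ± 469 in MPI MT and 6764 ± 375 in WT (limma adjusted p = 0.341). The gene that fell was EIF2S1, which encodes eIF2 alpha, by -0.34 ± 0.09 in log2 fold change (limma adjusted p = 0.0248). Its adjusted p was 0.0526 without MPI MT replicate 2, 0.0894 without WT replicate 2 and 0.0973 without WT replicate 3.

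Around the other sensors the changes went both ways. Of 10 tested ATF6 relatives, site proteases and NF-Y subunits, 2 rose and 3 fell (5 and 4 with the replicate block). MBTPS1, the site-1 protease that cuts ATF6, averaged 1483 ± 43.9 in MPI MT and 2149 ± 55.7 in WT (log2 fold change -0.54 ± 0.06, limma adjusted p = 3.89e-04). NFYC, a subunit of the factor that binds the CCAAT end of the ERSE, had a log2 fold change of -0.49 ± 0.08, and the ATF6 relative ATF6B had -0.34 ± 0.09. ATF6B lost its call without MPI MT replicate 2 or 3 or WT replicate 1 or 2 (adjusted p = 0.0791, 0.0834, 0.0719 and 0.0523, with log2 fold changes of -0.38 to -0.27). The 2 genes that rose were added after their values were seen. NFYA, another subunit of the CCAAT factor, had 0.31 ± 0.07 (limma adjusted p = 0.00878), called under all 17 alternatives. CREB3L2 had 0.25 ± 0.06 (limma adjusted p = 0.0143) and lost its call without MPI MT replicate 2 or WT replicate 2 or 3. The subunit gene NFYB had -0.17 ± 0.08 and did not pass. Of 6 tested IRE1 partners 1 fell, the signalling adaptor TRAF2, with 927 ± 4.65 in MPI MT and 1209 ± 13.0 in WT (log2 fold change -0.38 ± 0.06, limma adjusted p = 0.00231). With the block 2 rose and 1 fell.

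Of 9 genes of the calnexin cycle, the glycan-dependent folding route, 1 rose and 2 fell (2 and 3 with the block). GANAB, the catalytic subunit of glucosidase II, averaged 15388 ± 355 in MPI MT and 21678 ± 1131 in WT (log2 fold change -0.49 ± 0.07, limma adjusted p = 0.00104). Its partner subunit PRKCSH had a log2 fold change of 0.23 ± 0.07, and the mannosidase MAN1B1 had -0.33 ± 0.07. PRKCSH lost its call without MPI MT replicate 2 or 3 or WT replicate 2 or 3 (adjusted p from 0.116 to 0.119, with log2 fold changes of 0.20 to 0.22). Of 14 tested further ER thiol oxidoreductases 3 rose and 3 fell (3 and 5 with the block). ERO1A, the relative of ERO1B, averaged 4047 ± 348 in MPI MT and 5255 ± 169 in WT (log2 fold change -0.38 ± 0.08, limma adjusted p = 0.00595). The transmembrane isomerase gene TMX1 had a log2 fold change of -0.39 ± 0.06 and the sulfhydryl oxidase gene QSOX1 had 0.39 ± 0.07.

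Of 18 further BiP cofactors and folding factors 2 rose and 1 fell (2 and 2 with the block). The BiP cochaperone gene DNAJC1 had a log2 fold change of 0.41 ± 0.09, the ER Hsp40 and translocon gene SEC63 had 0.22 ± 0.06, and the prolyl isomerase gene FKBP9 had -0.26 ± 0.08. SEC63 lost its call without MPI MT replicate 2 or 3 or WT replicate 2 or 3 (adjusted p from 0.0868 to 0.0937). FKBP9 lost it without any one of the libraries but MPI MT replicate 1 (adjusted p from 0.0708 to 0.130).

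Of 40 further ERAD genes 11 rose and 3 fell (17 and 6 with the block), with a median of 0.10. NPLOC4, which encodes the partner of UFD1 on VCP, averaged 14389 ± 1235 in MPI MT and 9921 ± 571 in WT (log2 fold change 0.53 ± 0.08, limma adjusted p = 0.00195). RNF121, a membrane ubiquitin ligase gene, averaged 418 ± 20.7 in MPI MT and 695 ± 58.7 in WT (log2 fold change -0.73 ± 0.09, limma adjusted p = 5.85e-04).

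Of 15 translocon and signal peptidase genes 7 rose and 3 fell (10 and 4 with the block), with a median of 0.29. The signal peptidase subunit gene SEC11C averaged 1175 ± 228 in MPI MT and 634 ± 23.0 in WT (log2 fold change 0.87 ± 0.14, limma adjusted p = 0.00186). SSR3, a subunit of the translocon-associated complex, had a log2 fold change of 0.51 ± 0.09 and the channel subunit SEC61B had 0.39 ± 0.11. SEC61B lost its call without any one of the libraries but MPI MT replicate 1 (adjusted p from 0.0610 to 0.110).

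Of 14 cytosolic and mitochondrial heat shock chaperone genes, which answer to unfolded proteins outside the ER, 7 rose and 1 fell (9 and 2 with the block), with a median of 0.31. DNAJB1, an Hsp40, averaged 7850.5 ± 892 in MPI MT and 4777 ± 444 in WT (log2 fold change 0.71 ± 0.10, limma adjusted p = 0.00120). The mitochondrial chaperonin genes HSPE1 and HSPD1 had log2 fold changes of 0.64 ± 0.09 and 0.47 ± 0.09 (limma adjusted p = 0.00119 and 0.00427). Whether these lists differed from the 32 genes was not tested.

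**Figure D4:**
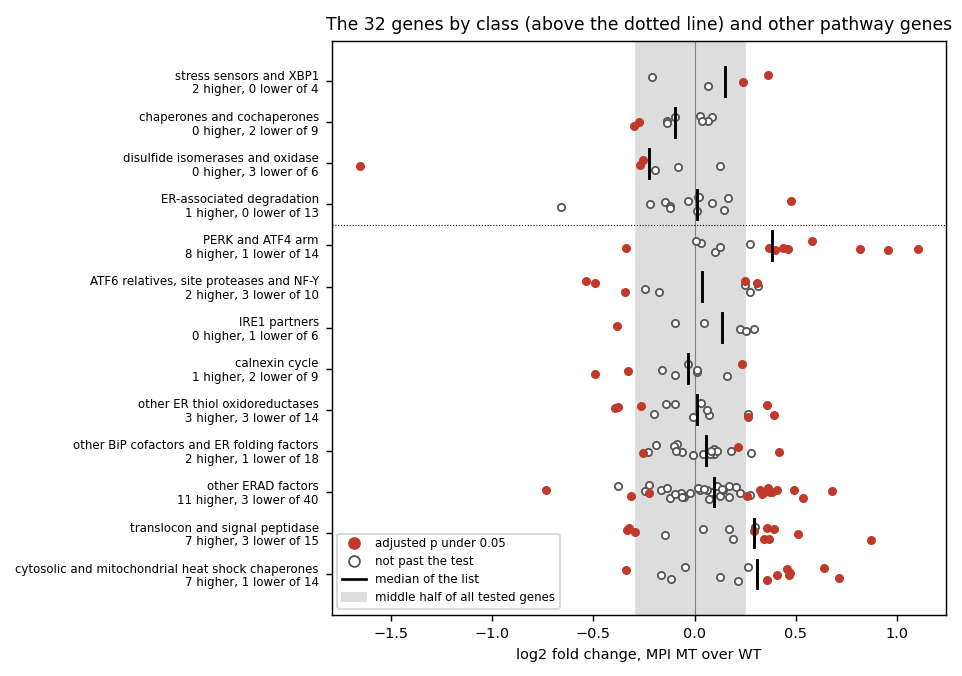
Log2 fold change, MPI MT over WT, of each tested gene in the 4 classes of the 32 genes (above the dotted line) and in the 9 further lists, with filled points for adjusted p under 0.05, a bar at each median and a grey band from the 25th to the 75th percentile of all tested genes (-0.29 to 0.25). The medians of the chaperone class (-0.10) and the disulfide class (-0.23) lie left of 0, and those of the PERK and ATF4 arm (0.38), the translocon (0.29) and the heat shock chaperones (0.31) lie right of the band.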

How the data were processed

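RNA-seq values of 6 LX-2 libraries were taken from 1 deposited table. Per the labels' protocols, mRNA was enriched by poly(A) selection and sequenced as paired 150-base reads. Per the submitters' processing notes, the tools were STAR 2.5.2b, Trimmomatic 0.36, Subread 1.5.2, featureCounts and DESeq2 and the build was GRCh38, without roles; no source used here gives the annotation release or strand setting.

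The authors deposited 1 signal per gene and library. Reads divided by 1 size factor per library (0.859 to 1.10) accounted for 100% of these values to within 0.01 read, so whole reads were recovered; edgeR on those reads called 5879 genes. The authors' deposited log2 fold change with its p-value, raw and adjusted, served as an alternative. No gene with a mean below 9.83 is analysed here.

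limma 3.58.1 (trend, robust) in R 4.3.3 was run on log2(value + 1), genotype as the only term; fold changes of low genes are understated. A raw count test was planned for raw counts only. The test was checked on simulated data with independent libraries and log2 changes of 1 or 2. Smaller changes and libraries that stand apart from their group were not simulated. The alternatives were adding a replicate block, leaving out each library or both numbered 1, TMM scaling, pseudocounts of 0.5 and 5, dropping the filter or raising it to a mean of 50, edgeR 4.0.16 with and without the block, DESeq2 1.42.0 on recovered reads, and the authors' columns. Deviations from the genotype mean correlated at 0.545, 0.189 and 0.276 between same-numbered libraries, all above the limit of 0.1 used here. MPI MT replicate 2 with WT replicate 3 (0.299) and MPI MT replicate 3 with WT replicate 2 (0.168) also passed it. Libraries numbered 1 stood apart in both genotypes, which raises all correlations among libraries 2 and 3. The limit therefore cannot show that 2 pairs with 2 or 3 with 3. No label states a batch. Intervals of 95% are per gene and not adjusted. Levels per kb use the union of all exons in GENCODE 29, which matched 17828 of the IDs. Date-like symbols (22) were repaired by ID.

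The 32 genes and the other lists were chosen with earlier results of these data known. All 32 are named; of each other list, those past the test with the largest change are named, up to 3, if the genotype with the higher mean reached 100. The values of 1 gene that this rule names are not reported here. Promoter sequences are RefSeq's.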

Additional observations from a re-analysis of the deposited data

How the results depend on the processing

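TMM scaling, both other filters, both other pseudocounts, edgeR and DESeq2 on recovered reads and the authors' deposited columns each called 3 of the 32 genes higher and 5 lower, as in the fit without a block. The replicate block moved the falls to 10 (edgeR with the block: 8), the falls of other pathway genes to 28, and the rises over all tested genes to 4494 (edgeR with the block: 4640). With both libraries numbered 1 left out, 6 of the 32 genes rose and 14 fell, 69 and 29 other pathway genes rose and fell, and 4984 and 4758 of all tested genes rose and fell. Leaving out 1 library gave 2 to 5 rises and 3 to 8 falls among the 32 genes, 26 to 62 and 11 to 24 among other pathway genes, and 1738 to 4389 and 2020 to 4284 over all tested genes. The cause of these shifts was not tested. Single values of the 32 genes stayed as they were, called or not called, in 506 cases. A call was lost in 11 cases and gained in 27, and no value that was called changed sign. Beyond the calls named in the report, the block changed none among the 32 genes. HSP90B1, OS9, SYVN1, EIF2AK3 and UFD1 passed only with the block or with 1 or both libraries numbered 1 left out.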
